A study of Mus musculus with 6 samples.

Results

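The genes described here are 9 regulators of the mesenchymal state and VIM, the gene of the intermediate filament protein vimentin. They are the homeobox factor PRRX1, the basic helix-loop-helix factors TWIST1 and TWIST2, the zinc finger repressors SNAI1, SNAI2, ZEB1 and ZEB2, and the coactivators YAP1 and WWTR1, of which the last encodes TAZ. The 10 genes were taken by name rather than by a threshold on their values, though with earlier results of these data known, and all 10 were found among the 18417 genes that the array measured with a probe set carrying a single gene symbol. A probe set is the group of array probes read as 1 value for a transcript. ZEB2 was the single gene of the 10 with more than 1 such probe set, and its brightest was used, as for every gene.

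RNA came from tumours grown by injecting SK-N-BE(2), a human neuroblastoma cell line with an amplified MYCN gene, into the adrenal gland of NSG mice, which lack T, B and natural killer cells. In the BL-8040 group this inhibitor of the chemokine receptor CXCR4 was given under the skin at 400 µg for 14 days in a row, starting on day 7 after the injection of the cells. The control group had tumours of the same line in the same strain. The BL-8040 dosing text stands on the records of the control samples too, and their group rests on the title and description. No source used here states what the control mice received, nor how old the animals were. The organism label names the mouse host, whereas the array and its gene symbols are human. Each group held 3 mice, and each tumour was read on 1 array made for human transcripts, which reads mouse RNA from host cells to the extent that it pairs with human probes. All 6 tumours thus stem from 1 cell line, and a change in the share of a cell type cannot be told apart from a change in RNA per cell in such bulk samples.

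Neuroblastoma cells occur in an adrenergic state, close to sympathetic neuroblasts, and in a mesenchymal state that resembles neural crest-derived mesenchyme, and can pass from one to the other. PRRX1 is a core factor of the mesenchymal state. The SNAIL, ZEB and TWIST factors bind E-box motifs and are known for repressing E-cadherin and other junction genes in epithelial-mesenchymal transition. YAP and TAZ drive transcription together with the TEAD factors and are held out of the nucleus by the Hippo kinases, so much of their control lies in the protein rather than in the transcript.

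The array medians lay between 5.35 and 5.42 log2 units. One array stood apart: on the first principal component over all genes (37.2% of the variance) BL-8040 replicate 3 lay at -22.7 and the other 5 arrays between -0.74 and 10.1. Of all genes, 46.8% had their highest or their lowest value in that array. The same held for 9 of the 10 genes described here, with 4 highest and 5 lowest there, beside 16.3% of all genes highest and 30.5% lowest. The differences of all 10 genes are therefore given with and without this array. The adrenergic markers used to check the tissue label, among them GATA3, ISL1, TH and DBH lay at or above the median signal of all genes (6.04) in 10 of 10 measured cases, against 0 of 7 for adrenal cortex markers.

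None of the 10 genes passed the test between BL-8040 and control tumours. In limma, 0 of 10 had an adjusted p under 0.05, against 0 of 18417 genes (0.00%), and 0 of 10 had an unadjusted p under 0.05, against 7.72% of all genes. Of the 10 genes, 5 had a higher mean after BL-8040 and 5 a lower one, with a median difference of 0.01 log2 units beside -0.02 over all genes, of which 58.5% had a lower mean. Leaving out BL-8040 replicate 3 gave a median of -0.01 beside -0.01. The adjusted p lay between 0.652 for SNAI2 and 0.939 for SNAI1. In 2 of the 10, TWIST1 and YAP1, the 3 treated values lay wholly on one side of the 3 control values, which 14.0% of all genes also showed. Here a difference is the mean log2 signal after BL-8040 minus that in controls, its SE is limma's moderated standard error, and 0.1 is the smallest p that the exact permutation test, two-sided, allows for 3 tumours against 3.

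**Figure D1:**
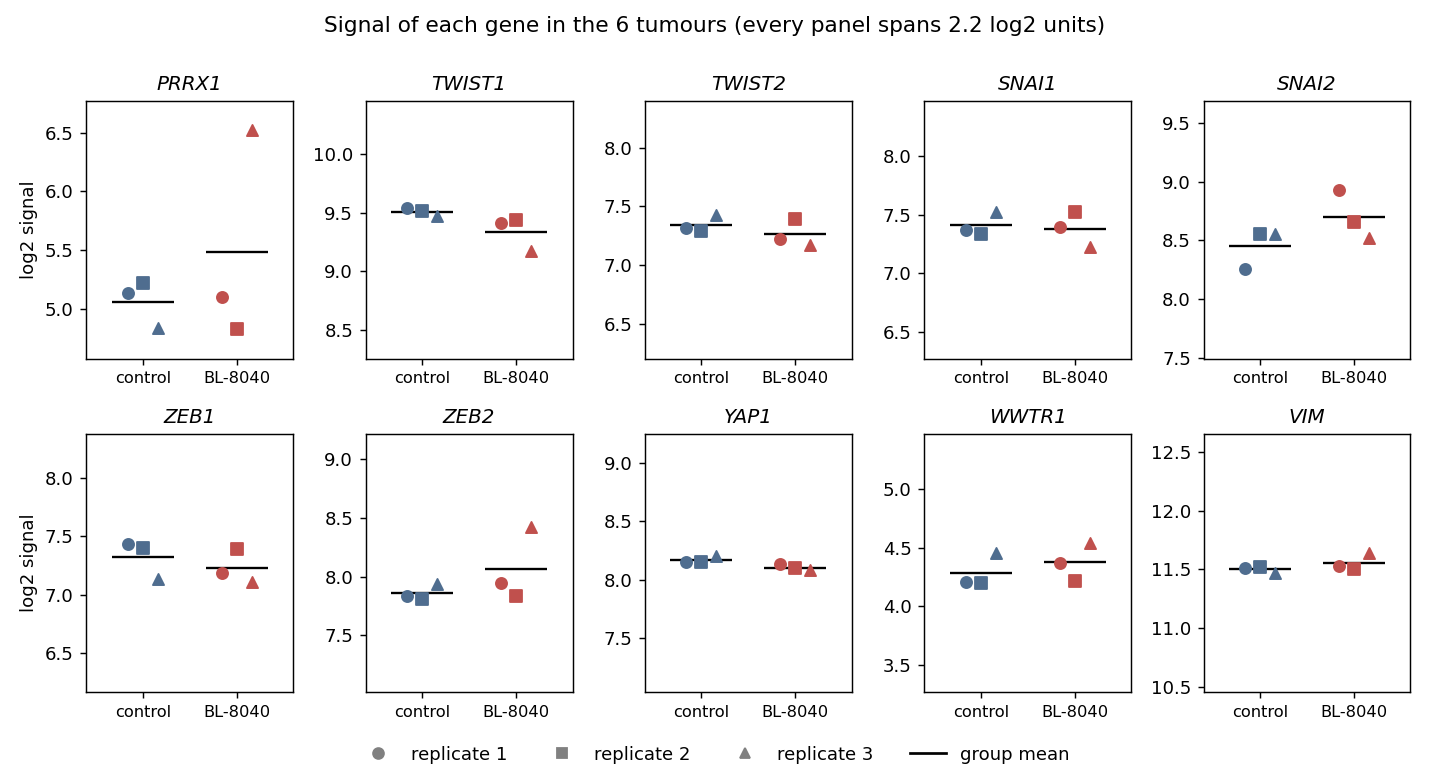
Log2 signal (vertical axes) of the 9 regulators and VIM in the 3 control and 3 BL-8040 tumours, with 1 point per tumour, the marker giving the replicate number, and a line at each group mean. Every panel spans the same number of log2 units. PRRX1 and ZEB2 are highest in BL-8040 replicate 3, at 6.53 and 8.42, and PRRX1 has the widest range of the 10 genes.

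PRRX1 gave the widest spread of the 10 genes, and 1 tumour made it. Its log2 signal was 5.10, 4.82 and 6.53 in the treated tumours, in order of replicate number as in all such lists here, and 5.13, 5.21 and 4.83 in the controls. The third treated tumour thus stood above the other 5, which lay between 4.82 and 5.21, and the first and second treated tumours lay within or just below the range of the controls. In BL-8040 replicate 3, PRRX1 exceeded the mean of the other 5 arrays by 1.51 log2 units, a 2.84-fold signal. Ordered by this excess, PRRX1 ranked 5 of 18417 genes, after BRWD1-AS2 (2.04), ATOH1 (1.77), TES (1.74) and IGFBP7 (1.67). An excess of at least 1 log2 unit was found for 30 genes in BL-8040 replicate 3 and for 0 to 4 genes in each of the other arrays. A single tumour carries no error estimate, so this is a description of that tumour.

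The group means of PRRX1 were 5.48 ± 0.91 with BL-8040 and 5.06 ± 0.20 without it (SD, n = 3 each). They differed by 0.42 ± 0.37 (SE), with 95% limits of -0.41 and 1.26 and an adjusted p of 0.758. Its exact permutation p was 0.9. The PRRX1 difference turned to -0.10 without BL-8040 replicate 3, with an interval from -0.41 to 0.21. It was 0.75 without BL-8040 replicate 2, and 0.10 when limma weighted each array by its quality. The probe set was dim, at percentile 37.7 of all genes by mean signal.

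TWIST1, a developmental factor of cranial mesenchyme, is known to cooperate with MYCN in neuroblastoma. Its log2 signal was 9.41, 9.44 and 9.17 in the treated tumours and 9.54, 9.52 and 9.47 in the controls, a bright gene at percentile 96.1. All 3 treated values lay below all 3 controls, the nearest of them by a small step, and BL-8040 replicate 3 was lowest. The difference was -0.17 ± 0.09 (SE), or 0.889 times the control level, with a 95% interval from -0.37 to 0.03, an adjusted p of 0.656 and an exact permutation p of 0.1. The TWIST1 difference was -0.09 without BL-8040 replicate 3, with an interval from -0.25 to 0.08. The groups did not overlap there either, which leaving out an array cannot change.

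TWIST2 is the close relative of TWIST1 in mesenchyme and dermis. Its values of 7.23, 7.39 and 7.18 after BL-8040 and 7.31, 7.29 and 7.43 in controls overlapped. The difference was -0.08 ± 0.08 (SE), with an interval from -0.27 to 0.11, and -0.03 without BL-8040 replicate 3. It was -0.14 without BL-8040 replicate 2, when the groups no longer overlapped, which fewer arrays make easier to meet.

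TWIST factors act as dimers with the E proteins TCF3, TCF4 and TCF12, and the ID proteins capture those partners. Of 8 genes on this list, 3 were higher and 5 lower, with a median difference of -0.05, which was -0.0043 without BL-8040 replicate 3, and 0 passed at the adjusted p. The 3 higher genes were ID1, ID2 and ID3, whereas ID4 and the partner genes were lower. ID3 and ID1 had an unadjusted p under 0.05. The ID3 values were 9.09, 8.96 and 9.20 after BL-8040 and 8.78, 8.76 and 8.70 in controls, so that the groups did not overlap. Nor did the ID1 groups overlap, which 14.0% of all genes also showed. ID3 differed by 0.34 ± 0.08 (SE) and ID1 by 0.22 ± 0.08, each with an adjusted p of 0.644. These differences were 0.28 and 0.27 without BL-8040 replicate 3. HAND1, a further partner, differed by -0.14 ± 0.08 (adjusted p = 0.684).

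SNAI1, the SNAIL repressor, showed overlapping groups at 7.40, 7.53 and 7.22 after BL-8040 and 7.37, 7.34 and 7.53 in controls. The difference was -0.03 ± 0.10 (SE), with an interval from -0.25 to 0.19, and it turned to 0.05 without BL-8040 replicate 3 and to 0.03 without control replicate 3. The interval thus left room for differences of at most 0.25 log2 units to either side.

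SNAI2 encodes SLUG, the relative of SNAIL used by migrating neural crest cells, and had the smallest p of the 10 genes. Its log2 signal was 8.93, 8.65 and 8.52 in the treated tumours and 8.26, 8.56 and 8.55 in the controls. The highest value belonged to BL-8040 replicate 1 and the lowest to control replicate 1, while BL-8040 replicate 3 lay just below the upper controls. The group means were 8.70 ± 0.21 and 8.46 ± 0.17 (SD, n = 3 each). The difference was 0.24 ± 0.12 (SE), a 1.18-fold level, with a 95% interval from -0.03 to 0.52, an unadjusted p of 0.0767 and an adjusted p of 0.652. The exact permutation p was 0.3. SNAI2 was the single gene of the 10 whose extreme values did not fall in BL-8040 replicate 3. Without that array its difference was 0.33, the interval from 0.05 to 0.62 no longer held 0, and the adjusted p was 0.772. Without BL-8040 replicate 1 it was 0.13 and without control replicate 1 it was 0.15.

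ZEB1 and ZEB2 are large zinc finger and homeodomain repressors that miR-200 microRNAs keep low in epithelia. ZEB1 was 7.18, 7.39 and 7.11 after BL-8040 and 7.43, 7.40 and 7.14 in controls. The third replicate was lowest in each group, and the groups overlapped. The ZEB1 difference was -0.09 ± 0.11 (SE), with an interval from -0.33 to 0.15, and -0.03 without BL-8040 replicate 3. Without control replicate 3 it was -0.19, and the groups did not overlap, which fewer arrays make easier to meet.

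ZEB2 also takes part in the development of sympathetic and other neural crest cells. Its log2 signal was 7.94, 7.84 and 8.42 in the treated tumours and 7.84, 7.81 and 7.93 in the controls. As with PRRX1, BL-8040 replicate 3 was the highest, 0.55 log2 units above the mean of the other 5 arrays, and ranked at percentile 99.3 of all genes by this excess. The difference between groups was 0.21 ± 0.14 (SE), with 95% limits of -0.11 and 0.52 and an adjusted p of 0.706, and it was 0.03 without that array. Without BL-8040 replicate 2 the ZEB2 difference was 0.32.

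A second ZEB2 probe set gave 4.26, 3.89 and 4.56 after BL-8040 and 3.93, 3.03 and 3.81 in controls. Control replicate 2 was lowest and BL-8040 replicate 3 again highest. Its difference was 0.65 ± 0.27 (SE) in the limma fit over all 33297 probe sets, with 95% limits of 0.015 and 1.28, an unadjusted p of 0.0460 and an adjusted p of 0.672. It was 0.48 without BL-8040 replicate 3. Its group means were 4.24 and 3.59 log2 units, below the median signal of all genes. When both probe sets were averaged the ZEB2 difference was 0.43, with an unadjusted p of 0.0351 and an adjusted p of 0.643.

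The proteins through which SNAIL and ZEB repress, and the enzymes and factors that control them, are also on a list. Of 22 listed genes 21 were measured, 10 higher and 11 lower with a median difference of -0.01, and 0 had an unadjusted p under 0.05. EED, a subunit of Polycomb repressive complex 2, differed by 0.22 ± 0.11 (SE), and FBXL14, which targets SNAIL proteins for degradation, by -0.14 ± 0.09. Their adjusted p were 0.649 and 0.689. EED was at 0.10 without control replicate 2, and FBXL14 at -0.08 without BL-8040 replicate 2.

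Junction and epithelial genes that these factors repress were lower in 14 of 19 measured cases, while 58.5% of all genes were lower. Their median difference was -0.12 beside -0.02 over all genes, and it was -0.12 as well without BL-8040 replicate 3. None of the 19 passed at the adjusted p, and 3 had an unadjusted p under 0.05, all lower, beside 7.72% of all genes in either direction. Of the 19, 7 lay at or above the median signal of all genes, so most were dim. PKP2, the desmosome protein plakophilin, was 5.97, 5.86 and 5.68 after BL-8040 and 6.01, 6.13 and 6.27 in controls, a difference of -0.30 ± 0.10 (SE). LLGL2, a polarity protein, differed by -0.22 ± 0.09 and PATJ, a tight junction scaffold, by -0.24 ± 0.10, each with an adjusted p of 0.644. Without BL-8040 replicate 3, LLGL2 was at -0.12 and PKP2 at -0.22, and without control replicate 3, PATJ was at -0.15. The PATJ groups overlapped. KRT8, a keratin and 1 of 5 higher genes, differed by 0.15 ± 0.07 (adjusted p = 0.646), and its groups did not overlap. The list median was not on one side of the controls in every array, since control replicate 1 (-0.06 from the 6-array mean) lay below all 3 treated tumours (-0.05 to -0.01), and control replicates 2 and 3 lay at 0.12 and 0.11. CDH1, the E-cadherin gene, was dim at percentile 12.1 and differed by 0.04, while CDH2, the N-cadherin gene, was bright at percentile 98.6 and differed by 0.03.

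YAP1 was the least variable of the 10 genes over the arrays, at percentile 4.27 of all genes by its SD over 6 arrays. Its log2 signal was 8.14, 8.10 and 8.08 in the treated tumours and 8.15, 8.15 and 8.21 in the controls. The groups did not overlap, but the gap between them was small and closed under quantile normalization and under median centring. The difference was -0.07 ± 0.07 (SE), or 0.955 times the control level, with an interval from -0.22 to 0.09, an adjusted p of 0.795 and an exact permutation p of 0.1. Without BL-8040 replicate 3 it was -0.05.

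WWTR1, the gene of TAZ, was dim, at percentile 23.7 by mean signal. It gave 4.37, 4.22 and 4.54 after BL-8040 and 4.21, 4.20 and 4.45 in controls, with the third replicate highest in each group. The groups overlapped. The difference was 0.09 ± 0.11 (SE), with an interval from -0.15 to 0.33, and 0.01 without BL-8040 replicate 3. Without control replicate 3 it was 0.17, and the groups did not overlap, which fewer arrays make easier to meet.

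**Figure D2:**
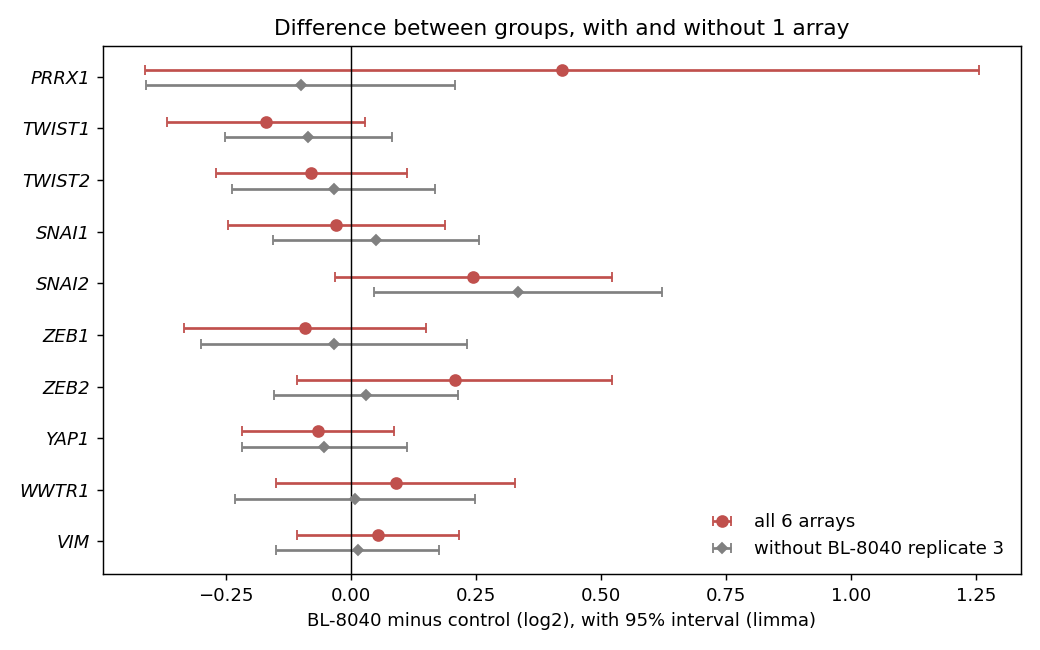
Difference in mean log2 signal between BL-8040 and control tumours (horizontal axis) for the 9 regulators and VIM, with 95% intervals from limma, for all 6 arrays (circles) and without BL-8040 replicate 3 (diamonds). With all arrays every interval holds 0, and without that array PRRX1 goes from 0.42 to -0.10, ZEB2 from 0.21 to 0.03 and SNAI2 from 0.24 to 0.33.

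The TEAD partners and Hippo pathway genes were split into 7 higher and 12 lower of 19, with a median difference of -0.03, and 0 passed at the adjusted p. AMOT, the gene of angiomotin, a scaffold that binds YAP, was 6.39, 6.28 and 5.87 after BL-8040 and 6.66, 6.63 and 6.73 in controls. Its treated values all lay below the controls. The difference was -0.49 ± 0.13 (SE), with an unadjusted p of 0.00380 and an adjusted p of 0.644, and it was -0.33 without BL-8040 replicate 3. MOB1B, a coactivator of the LATS kinases, differed by 0.23 ± 0.09 (adjusted p = 0.644) and by 0.26 without that array. Without control replicate 3 the MOB1B difference was 0.15.

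Of 23 target genes of YAP and TAZ, 9 were higher and 14 lower, with a median difference of -0.03 and -0.02 without BL-8040 replicate 3. One gene, FOXF2, a forkhead factor, had an unadjusted p under 0.05, at a difference of -0.22 ± 0.09 (SE) and an adjusted p of 0.644. F3, the gene of tissue factor, had the smallest p among the higher ones, at 0.17 ± 0.10 (adjusted p = 0.680), and was at 0.06 without control replicate 3. The widely used reporter genes CCN1 and CCN2 differed by 0.16 ± 0.10 and -0.0045 ± 0.09. CCN2 was 5.49, 5.26 and 5.50 after BL-8040 and 5.32, 5.47 and 5.48 in controls, and these groups overlapped.

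VIM was among the brightest genes of the array, at percentile 99.7. Its log2 signal was 11.53, 11.50 and 11.64 in the treated tumours and 11.51, 11.52 and 11.47 in the controls. BL-8040 replicate 3 was highest, by 0.13 log2 units over the mean of the other 5, and the groups overlapped. The difference was 0.05 ± 0.07 (SE), a 1.04-fold level, and its 95% interval from -0.11 to 0.22 corresponds to 0.928 to 1.16 times the control level. The VIM difference was 0.01 without BL-8040 replicate 3. Among 14 other intermediate filament genes, 7 were higher and 7 lower, with a median difference of -0.02 that turned to 0.03 without BL-8040 replicate 3. NEFH, the heavy neurofilament subunit, had an unadjusted p under 0.05, at -0.43 ± 0.18 (adjusted p = 0.644), and its difference was -0.21 without control replicate 1.

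Other regulators of the mesenchymal state were as often higher as lower. Of 22 measured, among them the RUNX, FOSL and MEOX factors, 11 were higher and 11 lower, with a median difference of -0.01 and 0 at an adjusted p under 0.05. ID1, described above, was the single one with an unadjusted p under 0.05. NOTCH2 had the smallest p among the lower ones, at -0.09 ± 0.07 (adjusted p = 0.746).

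Mesenchymal cell markers were higher for 13 of 22 genes. Their median difference was 0.04, and 0.02 without BL-8040 replicate 3. None passed at the adjusted p, and 4 had an unadjusted p under 0.05, 3 higher and 1 lower, beside 7.72% of all genes. TPM1, the gene of a tropomyosin, was 8.10, 7.89 and 8.16 after BL-8040 and 7.45, 7.70 and 7.66 in controls. These groups did not overlap, at a difference of 0.44 ± 0.10 (SE) and an adjusted p of 0.644. FN1, the fibronectin gene, differed by 0.25 ± 0.09 and TAGLN, the gene of the smooth muscle protein transgelin, by 0.30 ± 0.12, while TPM2, another tropomyosin gene, differed by -0.25 ± 0.10. Without BL-8040 replicate 3, TAGLN was at 0.16, and without control replicate 2, TPM2 was at -0.16.

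**Figure D3:**
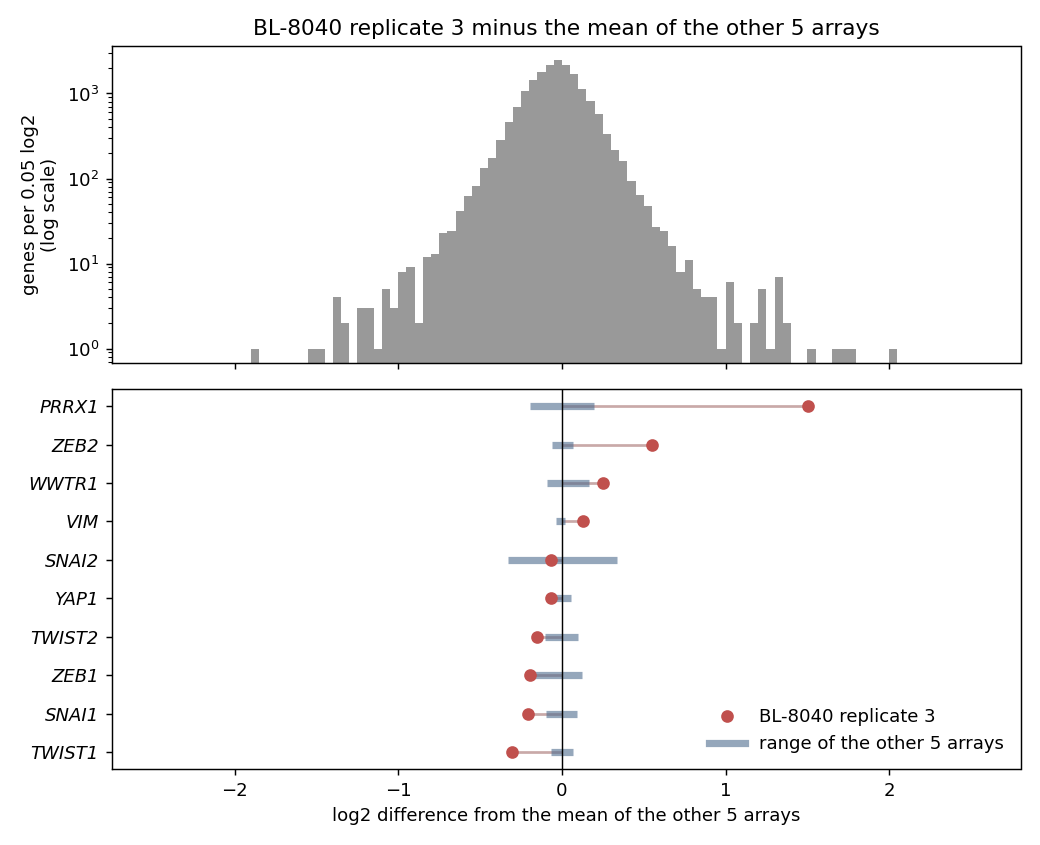
Log2 signal in BL-8040 replicate 3 minus the mean of the other 5 arrays (horizontal axes), as a histogram over all 18417 genes with a log scale for the counts (top) and for the 9 regulators and VIM (bottom, points), with bars for the range of the other 5 arrays. PRRX1 stands at 1.51 and ZEB2 at 0.55, outside that range, and TWIST1 stands at -0.31 on the other side.

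In the same tumour the regulators did not go in 1 direction. PRRX1, ZEB2, WWTR1 and VIM were at their highest in BL-8040 replicate 3, with excesses of 1.51, 0.55, 0.25 and 0.13 log2 units. TWIST1, SNAI1, ZEB1, TWIST2 and YAP1 were at their lowest there, at -0.31, -0.21, -0.20, -0.15 and -0.07. All 10 measured adrenergic markers were also at their lowest in this tumour, beside 30.5% of all genes, with a median excess of -0.37. The mesenchymal cell markers went both ways there. Of those 22 genes, 8 were at their highest and 5 at their lowest in this tumour, beside 16.3% and 30.5% of all genes. Their median excess was 0.07. TH, the rate-limiting enzyme of catecholamine synthesis, was 7.53 there and between 8.70 and 9.32 in the other 5. Over the groups all 10 adrenergic markers had a lower mean after BL-8040, as did 58.5% of all genes. Their median difference was -0.23, and -0.10 without BL-8040 replicate 3. HAND2, a factor of sympathetic neurons, differed by -0.21 ± 0.08 (SE), with an adjusted p of 0.644, and the other 9 had an unadjusted p of 0.05 or more.

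Markers of host cell types were read beside these values, because fibroblasts and pericytes also express PRRX1, ZEB2 and VIM. Of 12 fibroblast and pericyte markers, 9 had a higher and 3 a lower mean in treated tumours. Their median difference was 0.04, and -0.01 without BL-8040 replicate 3. Of the 12, 6 were highest and 3 lowest in BL-8040 replicate 3, beside 16.3% and 30.5% of all genes. The list was bright, with 10 of 12 at or above the median signal and a median percentile of 94.5. Whether this signal came from host or tumour cells was not tested. COL1A2 stood 1.21 log2 units and COL1A1 0.76 above the mean of the other 5 arrays in that tumour. By the same measure MCAM stood at -0.95, DCN at -0.38, PDGFRB at -0.28 and LUM at -0.02. The mean log2 signal of the 12 markers ran from 7.97 to 8.15 in the treated arrays and from 8.003 to 8.12 in the controls. MCAM, a pericyte and tumour cell adhesion molecule, differed by -0.53 ± 0.20 (SE), with an adjusted p of 0.644, and by -0.26 without BL-8040 replicate 3. LUM, the gene of lumican, had the smallest p among the higher ones, at 0.10 ± 0.08 (adjusted p = 0.731), and was at 0.05 without control replicate 3. Some named genes fall outside the rule for named genes and were picked with their values in view. They are the collagen genes, the genes ranked beside PRRX1, and TH, CDH1, CDH2, CCN1, CCN2, ID2, ID4, DCN and PDGFRB.

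The other host lists were mostly dim. Of 10 endothelial markers 1 was at or above the median signal, and of 10 myeloid markers 3. In BL-8040 replicate 3 their median excess was 0.13 and 0.06 log2 units. Their mean log2 signal ran from 4.75 to 4.97 and from 4.66 to 4.83 in the treated arrays, and from 4.82 to 4.87 and from 4.69 to 4.79 in the controls. EMCN, an endothelial sialomucin, was the bright exception among the endothelial markers, at percentile 96.3, and was highest in BL-8040 replicate 3. It differed by 0.35 ± 0.10 (SE) and PECAM1 by -0.21 ± 0.08, while LYZ, the lysozyme gene, differed by 0.32 ± 0.13, each with an adjusted p of 0.644. Without BL-8040 replicate 3 these differences were 0.25, -0.16 and 0.24. TYROBP, an adaptor of myeloid receptors, differed by -0.20 ± 0.09 (adjusted p = 0.646), and by -0.12 without control replicate 3. Of the 7 adrenal cortex markers NR5A1 and MC2R, the steroidogenic factor and the corticotropin receptor, differed by 0.12 ± 0.09 and -0.03 ± 0.09, and by 0.04 and 0.03 without control replicate 2. The part of host RNA in the values of PRRX1, ZEB2 and VIM was not tested.

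**Figure D4:**
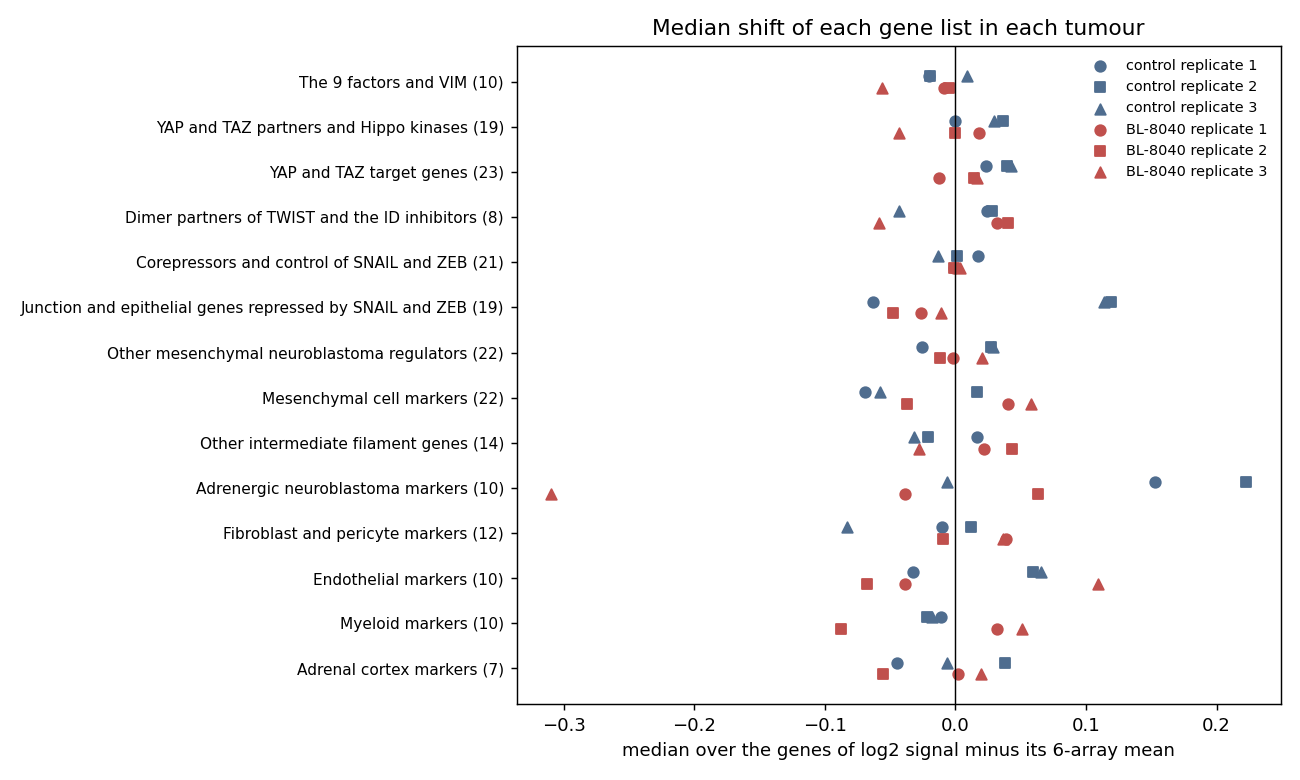
Median over the genes of each list of log2 signal minus its 6-array mean (horizontal axis), for the 9 regulators and VIM and for 13 companion lists (number of genes in brackets), with 1 point per tumour. The adrenergic markers have the widest range, from -0.31 in BL-8040 replicate 3 to 0.22 in control replicate 2, while the 9 regulators and VIM lie between -0.06 and 0.01.

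For the 8 genes at or above the median signal, the genes with the most similar course over the 6 arrays were sought among the 9209 genes at or above that median. Such values describe 6 arrays that share BL-8040 replicate 3 as their most distant point. Each r given is among the highest of that search, so high values were selected for every gene, SNAI2 included. The closest to TWIST1 were PLPPR5 (Pearson r = 0.997) and AATF (0.995), and to ZEB2 they were PAQR6 (0.996) and ADAR (0.994). PAQR6 reached 8.27 in BL-8040 replicate 3, while the other 5 tumours lay between 6.76 and 7.17. VIM was closest to DNAJC8 (0.999) and SLC12A4 (0.997), and ZEB1 to YARS1 (0.995) and SH3BGRL2 (0.993). YAP1 was followed by TLCD2 (0.991) and PELP1 (0.989), SNAI1 by PLXNB1 (0.988) and RPL37A (0.981), and TWIST2 by PAXX (0.983) and FAM234B (0.982). SNAI2, whose high and low points lay in other tumours, was closest to YKT6 (0.988) and IRF9 (0.985). PRRX1 and WWTR1 were below the median signal and were not compared in this way.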

How the data were processed

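The authors deposited 1 table of log2 signal per probe set for 6 arrays, 3 BL-8040 and 3 control, grouped by sample title. RNA (200 ng per tumour) was hybridised to Affymetrix Human Gene 1.0 ST arrays, per the series' design text. Of software, the submitters' processing notes name Partek 6.6; background correction, normalization and probe summarization are stated in no source used here. No detection calls were used, so dim genes are described by percentile, and the number of arrays limits the precision.

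Probe sets with 1 platform symbol (19460) were reduced to the brightest per gene, and values were not normalized again. Groups were compared over 18417 genes with limma 3.58.1 (lmFit, eBayes) under R 4.3.3, as a two-sided test with Benjamini-Hochberg adjustment over all genes. The fit was tested on simulated data. The 10 genes and the 13 companion lists were chosen with earlier results of these data known. Of 203 list entries 197 were measured. From each list the text names the gene with the smallest p in each direction and up to 4 with an unadjusted p under 0.05. The labels do not say that equal replicate numbers belong together, so the numbers were not taken as pairs. Over genes, the deviations of same-numbered arrays from their group means correlated with r of -0.04, 0.02 and 0.08. For differently numbered arrays r ran from -0.09 to 0.07. Alternatives were a filter on dim genes, quantile normalization, median centring, the mean of probe sets, all probe sets, trend and robust moderation, array weights, the replicate block, and leaving out each array.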

Additional observations from a re-analysis of the deposited data

How the results depend on the processing

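Under the 14 alternatives, 0 genes in all had an adjusted p under 0.05 in limma, and the median difference of the 10 genes stayed between -0.05 and 0.03. An unadjusted p under 0.05 was found for 714 of 9209 genes with dim genes left out and for 2457 of 33297 probe sets. In the other alternatives it was found for 905 to 1838 of 18417 genes. The count of the 10 with an unadjusted p under 0.05 was 1 rather than 0 with the mean of probe sets (ZEB2), with trend and robust moderation (TWIST1) and with array weights (SNAI2). Over all 18417 genes, those settings gave 1424, 1455 and 1707 such genes, beside 1422 (7.72%) in the main fit. With 1 array left out the count of the 10 was 0 to 1, where 905 to 1838 of all genes had such a p. The count with groups that did not overlap was 1 rather than 2 under quantile normalization (TWIST1 alone). It was 2 under median centring (TWIST1, and SNAI2 in place of YAP1). With 1 array left out it was 2 to 5: 5 without BL-8040 replicate 2 and 4 without control replicate 3. Leaving out an array can only add such genes, and the share over all genes is not given here for those fits. PRRX1 and SNAI1 changed direction. With 1 array left out PRRX1 ran from -0.10 (without BL-8040 replicate 3) to 0.75, and SNAI1 from -0.10 to 0.050 (without the same array), with 0.028 without control replicate 3. With array weights SNAI1 was at 0.022. The other 8 genes kept their direction in every alternative that gave a value. With the replicate block TWIST1 had an adjusted p of 0.640 and a difference of -0.17, and the block changed no call. The third treated array had the lowest weight (0.473). With 3 arrays a group the 95% interval of the median gene reached 0.197 log2 units to each side, and 7 of the 10 genes had intervals within 0.4 log2 units of 0.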
